A study of Mus musculus with 6 samples.

Results

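Chemokines are small secreted proteins that direct the movement of cells, mostly leukocytes, along gradients, and chemokine receptors are the seven-pass membrane proteins that read them through inhibitory G proteins. Ligands are grouped by the spacing of their first cysteines into CC, CXC, CX3C and XC classes. In the mammary gland, CC ligands are known for recruiting the macrophages and eosinophils that accompany the growing ducts at puberty. The genes described here were taken by symbol: every row of the count table named as a Ccl, Cxcl, Ccr or Cxcr gene with a number, and Cx3cl1, Cx3cr1, Xcl1 and Xcr1. There were 58 such rows among the 34590 genes of the table, 39 ligands (24 CC, 13 CXC, 1 CX3C and 1 XC) and 19 receptors. A count of at least 10 in at least 3 columns was reached by 49 of them, and these same 49, 31 ligands and 18 receptors, passed the filter on low counts and were tested.

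The libraries came from 3 female WT host mice whose inguinal fat pads, the glands with number 4, had been freed of their own epithelium. In each mouse one pad was grafted with WT.EGFP+ mammary epithelium on the left and the other with Adamts18-/-.EGFP+ epithelium on the right, so genotype and body side cannot be told apart. Adamts18 encodes a secreted metalloproteinase, and the Adamts18-/- allele lacks the exons for its catalytic site. The donor lines and the EGFP transgene, which is driven by a chicken β-actin promoter in donor cells of any type, were kept on a C57BL/6JOlaHsd background. Each group had 3 libraries, each pair from another mouse, and the age of the hosts at collection was not given in the sources used here. By the paper, the 3 pairs came from 3 separate experiments and 3 donors. Host mouse, donor and experiment therefore cannot be told apart, and a difference between mice below can be one of any of them. The hosts were described as WT, so their own leukocytes could be present in either gland.

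Total counts lay between 53875123 and 71595924 per library, at which 3 counts equal 0.0430 to 0.0574 CPM (counts scaled to a library of fixed size). Adamts18 itself, counted over the whole gene and not over the deleted exons alone, was lower in the Adamts18-/- gland of each of the 3 mice, with 3.61, 9.92 and 6.80 CPM in WT glands and 2.75, 4.87 and 3.29 CPM in Adamts18-/- glands. The paper also reports Adamts18 transcripts from the stroma of WT fat pads that carried Adamts18-/- epithelium. The part of host stroma in these values was not tested. The labels describe sorted GFP-positive mammary epithelial cells, whereas the study's text describes whole glands. Markers of other cells were abundant in every library: the summed level was 8828 to 12180 CPM for 7 fibroblast genes, 3819 to 9479 CPM for 6 adipocyte genes and 1801 to 3098 CPM for 10 macrophage genes, against 1226 to 2400 CPM for 20 pan-epithelial genes. The libraries also stood apart in 2 ways that matter for chemokines. Both glands of mouse 3 were rich in lymphocyte markers, with 7 B cell genes summing to 151.4 CPM in its WT gland and 723.4 CPM in its Adamts18-/- gland, against 10.9 to 18.5 CPM in the other 4. The Adamts18-/- glands of mice 1 and 2 carried 9206 and 8987 CPM of 5 skeletal muscle genes, against 218.6 to 2326 CPM in the other 4 glands. In such mixed tissue, fewer cells of a type and less RNA per cell cannot be told apart.

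The promoters of the 5 genes that passed the thresholds used below, which rest on an unadjusted p, are shown. Each sequence is the 250 bases before the annotated start in the RefSeq annotation of GRCm38.p6, written 5′ to 3′ on the gene's own strand, with capitals marking every match to 4 motifs searched on both strands: an NF-kB-like motif (GGGANNNNCC), an AP-1 motif (TGANTCA), a GAS motif bound by STAT proteins (TTCNNNGAA) and a TATA box (TATAAA). The windows were Cxcl2 at chr5:90903649-90903898 on the plus strand, Ccl12 at chr11:82101595-82101844 on the plus strand, Cxcl13 at chr5:95956689-95956938 on the plus strand, Cxcl14 at chr13:56296552-56296801 on the minus strand and Cx3cl1 at chr8:94771930-94772179 on the plus strand.
Cxcl2: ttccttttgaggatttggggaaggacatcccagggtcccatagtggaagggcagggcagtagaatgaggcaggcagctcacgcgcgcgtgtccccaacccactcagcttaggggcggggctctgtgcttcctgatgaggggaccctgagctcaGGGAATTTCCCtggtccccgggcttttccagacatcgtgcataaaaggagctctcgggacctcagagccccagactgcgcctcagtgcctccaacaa
Ccl12: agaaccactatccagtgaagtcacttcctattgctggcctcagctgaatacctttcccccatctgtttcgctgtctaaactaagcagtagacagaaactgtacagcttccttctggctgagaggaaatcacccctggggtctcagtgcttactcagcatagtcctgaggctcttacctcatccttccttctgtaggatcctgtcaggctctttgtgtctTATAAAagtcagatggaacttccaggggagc
Cxcl13: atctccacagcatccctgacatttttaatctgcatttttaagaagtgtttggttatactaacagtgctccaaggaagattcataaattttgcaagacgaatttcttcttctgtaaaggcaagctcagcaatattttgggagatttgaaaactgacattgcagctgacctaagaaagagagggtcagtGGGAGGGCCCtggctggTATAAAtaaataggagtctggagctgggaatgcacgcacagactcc
Cxcl14: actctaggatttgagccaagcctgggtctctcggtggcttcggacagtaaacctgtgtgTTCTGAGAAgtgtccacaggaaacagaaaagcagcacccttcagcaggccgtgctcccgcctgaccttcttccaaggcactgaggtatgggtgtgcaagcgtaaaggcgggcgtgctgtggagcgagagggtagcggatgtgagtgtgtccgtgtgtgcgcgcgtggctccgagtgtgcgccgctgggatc
Cx3cl1: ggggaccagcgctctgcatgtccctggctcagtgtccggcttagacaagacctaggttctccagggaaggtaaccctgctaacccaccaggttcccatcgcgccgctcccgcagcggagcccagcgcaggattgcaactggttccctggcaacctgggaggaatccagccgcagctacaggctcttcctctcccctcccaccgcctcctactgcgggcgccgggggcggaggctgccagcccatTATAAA

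The 5 windows did not share one motif. Cxcl2 held NF-kB-like matches that overlap each other, with first bases at -97 and -96 from the start on opposite strands, and Cxcl13 held one at -63 followed by a TATA box at -46. Ccl12 had a TATA box at -31 and Cx3cl1 one at -6, while Cxcl14 had only a GAS match, at -191. Promoter windows were found for 42 of the 58 members, with 49 windows in all because some genes have several starts. The NF-kB-like motif was found in 38.8% of these 49 windows and in 17.6% of all 32851 promoters of the same length, and TATAAA in 26.5% against 12.4%. AP-1 stood at 12.2% against 6.75%, and GAS at 6.12% against 7.02%. Such matches describe the letters of the window and show neither a bound site nor a cause.

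Before the comparison of genotypes, the levels of the members are given over all 6 glands as CPM per kb of annotated exons, so that genes of different length can be set side by side. CC ligands held the highest levels per kb: Ccl8, which recruits monocytes and T cells, stood at 155.2 CPM per kb, the Ccr1 ligand Ccl6 at 149.4 and eotaxin (Ccl11), which recruits eosinophils, at 109.4. Next came the scavenging receptor Cxcr7 (current symbol Ackr3), which takes up Cxcl12, at 59.5 CPM per kb, Ccl9, another Ccr1 ligand, at 58.3, Cxcl14 at 54.0 and Cxcl12 at 50.1. The length joins the exons of all annotated transcripts, 8176 bases for Cxcl12 and 511 for Ccl8. In plain CPM Cxcl12 was the highest member, with a mean of 409.5 against 79.3 for Ccl8. After Cxcr7, the receptors with the highest levels per kb were Cxcr4, the signalling receptor for Cxcl12, at 21.9 and the monocyte receptor Ccr2 at 11.5. The median level per kb was 5.57 for the 18 CC ligands tested, 13.3 for the 11 CXC ligands and 2.39 for the 18 receptors. The summed level of all 58 members was 1743 to 1936 CPM in WT and 1836 to 2205 CPM in Adamts18-/- glands. The order per kb rests on means over the 6 glands, and whether genes next to each other in it differ was not tested. The spread between glands was unlike: in plain CPM Ccl8 ranged from 39.4 to 135.4, whereas Ccl11 stayed between 104.9 and 140.1.

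**Figure D1:**
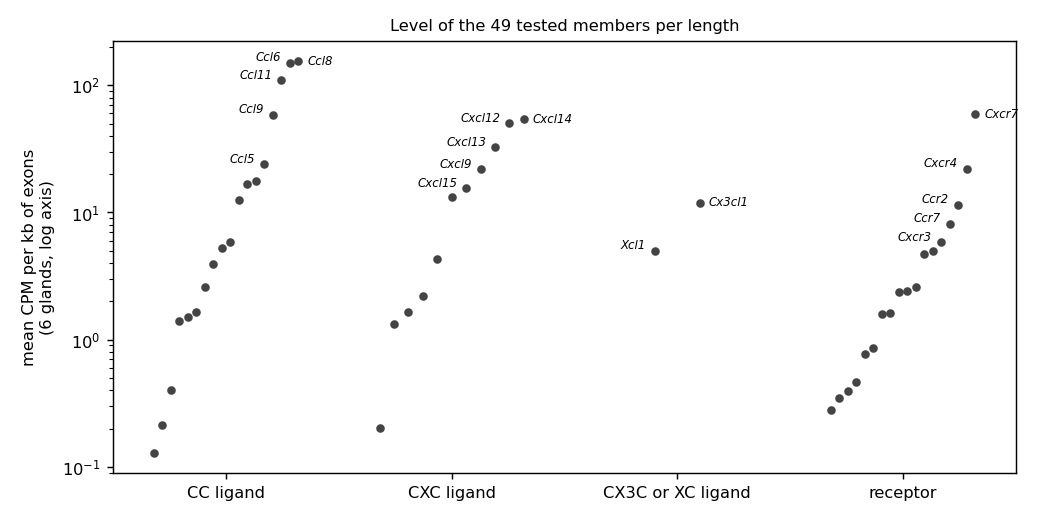
Mean level of each of the 49 tested members over the 6 glands, in CPM per kb of annotated exons on a log axis, by class, with up to 5 of the highest named in each class. CC ligands spanned 0.128 to 155.2 CPM per kb, CXC ligands 0.204 to 54.0 and receptors 0.281 to 59.5.

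The comparison of the contralateral glands asks which genes differ when the grafted epithelium lacks Adamts18. With the mouse as a block in edgeR's quasi-likelihood test, and with the study's thresholds of an unadjusted p under 0.05 and a fold change under 0.8 or over 1/0.8, the neutrophil attractant Cxcl2, the monocyte attractant Ccl12 and the B cell attractant Cxcl13 were higher in Adamts18-/- glands, and Cxcl14 and Cx3cl1, which epithelial cells are known to make, were lower. These are 3 of 49 tested members called higher (6.12%), where 1.17% of all 17345 genes tested were, and 2 called lower (4.08%), where 1.84% of all genes were. With the libraries scaled to 20 pan-epithelial genes in place of the trimmed mean of all genes, the split was 11 higher and 0 lower (5.47% and 0.133% of all genes), with the median of all genes shifted to 0.38 on the log2 scale. By adjusted p under 0.05 edgeR called 0 members and 0 genes, with 6 members and 670 genes at an unadjusted p under 0.05, limma-voom also called 0, and DESeq2 called 1 member, Cxcl2 (adjusted p = 0.0470), among 27 genes called higher and 44 called lower. The smallest adjusted p of a member in edgeR was 0.987, so "past the thresholds" below means the unadjusted p of edgeR and the fold, and a p here measures only the spread between 3 mice.

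Over the 49 members, 35 had a fitted log2 fold change above 0 and 14 below it, where 50.2% of all genes lay above. The median was 0.17 for the members and 0.00065 for all genes. Higher values in the Adamts18-/- gland of all 3 mice were seen in 12 members (24.5%, against 10.8% of all genes) and lower values in all 3 in 4 members (8.16%, against 12.7%). In 0 members did all Adamts18-/- glands lie above all WT glands (2.31% of all genes), and in 1, Ccl27a, all lay below (2.63% of all genes). The median rests on mouse 3: without that mouse it was -0.082, with 21 of 49 members above 0.

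Cxcl2, a CXC ligand with the ELR motif that acts on neutrophils through Cxcr2, had the largest fitted change of the 49 tested members. WT glands gave 2.90, 0.555 and 0.409 CPM in mice 1, 2 and 3, and contralateral Adamts18-/- glands gave 6.83, 4.97 and 0.960 CPM. The Adamts18-/- gland was the higher one in each mouse, by 2.34, 8.51 and 2.25 times. These ratios were taken from log2 CPM with a prior count of 2, which draws them below the plain ratios of the CPM. The ranges of the groups overlapped: the Adamts18-/- gland of mouse 3 lay below the WT gland of mouse 1. The fitted log2 fold change was 1.86 ± 0.47 (SE, n = 3 mice), a fold of 3.64, and it stayed past the thresholds with any 1 mouse left out (1.23 to 2.25). Counts behind these values were modest, from 23 reads in the WT gland of mouse 3 to 357 in the Adamts18-/- gland of mouse 1.

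The other ELR ligands did not pass the thresholds. Cxcl1, which shares the receptor Cxcr2 and lies next to Cxcl2 on chromosome 5, was at 5.45, 1.27 and 2.66 CPM in WT glands and 3.14, 3.55 and 2.55 CPM in Adamts18-/- glands, with a log2 fold change of 0.18 ± 0.48 (SE). Cxcl15, known from epithelia of the lung and other mucosae, was at 40.9, 34.3 and 33.7 CPM in WT and 40.4, 26.2 and 21.7 CPM in Adamts18-/- glands, lower in all 3 mice but not past the thresholds (-0.35 ± 0.14). Cxcl3 and Cxcl5 were too low to test, with 0 to 9 and 0 to 58 reads per gland. Cxcr2 was at 0.515 to 1.32 CPM in 5 glands and at 4.57 CPM in the Adamts18-/- gland of mouse 3, the gland in which Cxcl2 was lowest of its group. Of 9 neutrophil markers 6 could be tested and 0 passed the thresholds or had an unadjusted p under 0.05 in edgeR. Their sum was 59.8 to 306.1 CPM in WT and 55.5 to 94.4 CPM in Adamts18-/- glands, most of it in Ltf, which mammary epithelium also makes. S100a8 and S100a9, both abundant in neutrophils, reached at most 2.00 and 2.51 CPM, and Ly6g, the neutrophil surface antigen, 0.0325 CPM.

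Ccl12 (MCP-5), a monocyte attractant that acts through Ccr2, was higher in each Adamts18-/- gland. Its levels were 1.86, 0.946 and 3.66 CPM in WT (mice 1 to 3) and 4.15, 1.70 and 6.51 CPM in the Adamts18-/- glands. The within-mouse ratios, again from log2 CPM with the prior count, were close to each other, at 2.20, 1.77 and 1.77. The mice themselves differed more than the genotypes, so the groups overlapped. The log2 fold change was 0.94 ± 0.17 (SE, n = 3 mice), and the call held without each mouse in turn (0.84 to 1.02).

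Cxcl13 attracts B cells and follicular helper T cells through Cxcr5. It stood at 26.4, 30.2 and 31.9 CPM in WT glands and 29.1, 41.5 and 64.8 CPM in Adamts18-/- glands, so its WT levels lay close together and its Adamts18-/- levels spread over more than a factor of 2. The log2 fold change was 0.54 ± 0.18 (SE, n = 3 mice). It rested on 2 of the mice: without mouse 3 it was 0.31, under the fold threshold, and without mouse 2 it was 0.58 but no longer passed. The Adamts18-/- gland of mouse 3, where Cxcl13 was highest, was also the gland with 723.4 CPM of B cell markers, and the part of these cells in the result was not tested.

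Cxcl14, a ligand that epithelia and fibroblasts make without an inflammatory stimulus, was lower in each Adamts18-/- gland, with 95.4, 173.5 and 73.7 CPM in WT and 80.4, 125.5 and 43.9 CPM in Adamts18-/- glands. The log2 fold change was -0.49 ± 0.11 (SE, n = 3 mice), and it passed the thresholds without any 1 of the mice (-0.61 to -0.35). The groups overlapped, since mice differed more among themselves than the glands of a mouse did.

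Cx3cl1 (fractalkine) is a membrane-bound ligand of epithelium and endothelium whose receptor Cx3cr1 marks monocytes and tissue macrophages. It was at 38.4, 63.3 and 61.1 CPM in WT glands and at 36.4, 42.4 and 39.3 CPM in Adamts18-/- glands. Only the WT gland of mouse 1 reached down into the Adamts18-/- range. Its log2 fold change was -0.43 ± 0.13 (SE, n = 3 mice), and it was not called without mouse 2 (-0.36) or mouse 3 (-0.32). Its receptor Cx3cr1 had 5.76 to 9.23 CPM in the glands of mice 1 and 2 and about 21 CPM in both of mouse 3, with a log2 fold change of -0.21 ± 0.18 (SE).

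Epithelial markers also had lower fitted values, mainly through mice 2 and 3. In mouse 1 the summed pan-epithelial level was nearly equal in the 2 glands. All 20 pan-epithelial genes had a fitted log2 fold change below 0, with a median of -0.37 and 5 of them past the thresholds. Of the other lists, 6 of 7 myoepithelial, 2 of 4 hormone-sensing luminal and 1 of 6 tested secretory luminal genes passed the thresholds as lower. Of all genes tested, 1.84% were called lower. Fibroblast and endothelial markers had 0 of 7 and 0 of 6 past the thresholds, none with an unadjusted p under 0.05 in edgeR, and their summed levels in Adamts18-/- relative to WT were 1.03, 1.34 and 1.14 for fibroblasts and 0.861, 1.02 and 0.867 for endothelium in mice 1 to 3. The summed pan-epithelial level in Adamts18-/- relative to WT was 0.974, 0.587 and 0.695 in mice 1, 2 and 3, beside 0.843, 0.724 and 0.596 for Cxcl14 and 0.947, 0.669 and 0.643 for Cx3cl1. Scaled to the pan-epithelial genes, Cxcl14 had a log2 fold change of -0.11 ± 0.39 (SE) and Cx3cl1 one of -0.053 ± 0.38, and neither was called. That scaling moved the median of all genes to 0.38 and widened the SEs of Cxcl14 and Cx3cl1 from 0.11 and 0.13. Falls of their size could hardly be called under it. With the same shift upwards, Cxcl2, Ccl12 and Cxcl13 stayed called, at 2.21, 1.31 and 0.93.

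**Figure D2:**
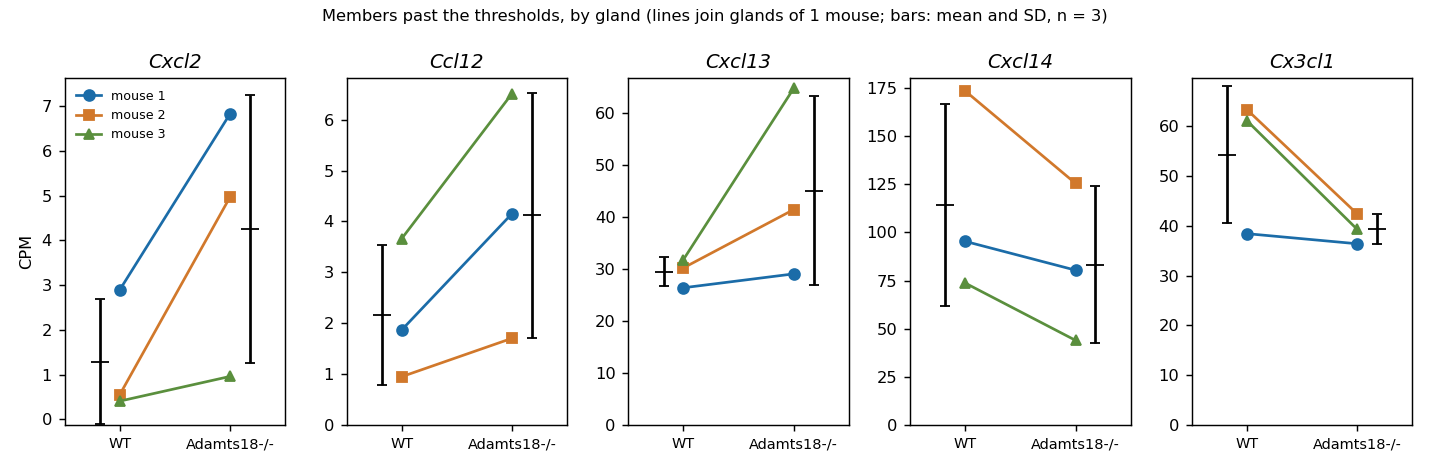
CPM of the 5 members past the thresholds in each gland, with a line joining the WT and Adamts18-/- gland of 1 mouse and black bars for the group mean and SD (n = 3 glands); the Cxcl2 axis runs slightly below 0 to show the lower SD bar. Cxcl2, Ccl12 and Cxcl13 were higher and Cxcl14 and Cx3cl1 lower in the Adamts18-/- gland of each mouse. The last 2 had no call when the libraries were scaled to epithelial genes, which moved the median of all genes to 0.38.

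The monocyte attractants around Ccl12 sit in one cluster on chromosome 11, and within-mouse differences of Ccl2 and Ccl7 were less even than those of Ccl12. On GRCm38 the cluster runs from Ccl2 (82035571 to 82037453) through Ccl7, Ccl11 and Ccl12 to Ccl8 (82115185 to 82116799) and Ccl1. Ccl2 (MCP-1), the main Ccr2 ligand, was at 14.6, 4.80 and 16.8 CPM in WT and 24.0, 11.8 and 14.3 CPM in Adamts18-/- glands, higher in mice 1 and 2 and not in mouse 3 (log2 fold change 0.59 ± 0.31, SE). Ccl7 (MCP-3), also a Ccr2 ligand, was at 13.0, 3.56 and 14.5 CPM in WT and 19.9, 13.9 and 15.3 CPM in Adamts18-/- glands, with the same sign in all 3 mice but little difference in mouse 3 (0.86 ± 0.39). For both genes the WT gland of mouse 2 was the low one. Without mouse 3 both were called higher, with Ccl3, Ccl9 and Cxcr7 as well as Ccl12 and Cxcl2. That fit called 3.34% of all genes higher, against 1.17% with all mice.

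Ccl8 had a smaller and more even difference. Its CPM were 59.5, 39.4 and 123.3 in WT and 69.1, 49.2 and 135.4 in Adamts18-/- glands, a log2 fold change of 0.22 ± 0.07 (SE, n = 3 mice) that was under the fold threshold, the only member past the threshold on p alone. Ccl11 was at 110.9, 105.9 and 124.8 CPM in WT and 123.5, 104.9 and 140.1 CPM in Adamts18-/- glands (0.10 ± 0.07). Ccl24, another eotaxin, had 14.9 to 31.9 CPM in WT and 13.2 to 31.1 CPM in Adamts18-/- glands (0.036 ± 0.29). Their receptor Ccr3 was at 1.32 to 2.79 CPM in 5 glands and 7.19 CPM in the Adamts18-/- gland of mouse 3. None of the eosinophil attractants or their receptor passed the thresholds.

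A cluster further along chromosome 11 holds Ccl5, Ccl9, Ccl6, Ccl3 and Ccl4, inflammatory CC ligands. Ccl6 was at 293.8, 222.1 and 227.1 CPM in WT and 349.7, 268.1 and 248.8 CPM in Adamts18-/- glands, higher in each mouse by a log2 fold change of 0.22 ± 0.08 (SE). Ccl9 stood at 196.1, 147.9 and 150.0 CPM in WT and 238.6, 189.9 and 141.8 CPM in Adamts18-/- glands (0.19 ± 0.11), so its sign turned in mouse 3. Ccl3 (MIP-1α), a macrophage product that acts through Ccr1, was low, at 0.245 to 1.46 CPM in WT and 0.875 to 2.03 CPM in Adamts18-/- glands (0.95 ± 0.40), and was nearly equal in the glands of mouse 3. Ccl4 (MIP-1β), its neighbour in the cluster, had 0.14 ± 0.20.

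Ccr2 and Ccr1, receptors of these ligands, did not pass the thresholds. Ccr2 was at 65.9, 55.8 and 97.6 CPM in WT and 85.2, 45.3 and 118.3 CPM in Adamts18-/- glands (0.12 ± 0.15, SE). Ccr1, a receptor of monocytes and neutrophils, was at 14.3, 10.5 and 14.3 CPM in WT and 18.2, 11.9 and 15.6 CPM in Adamts18-/- glands. It was higher in all 3 mice by a fitted 0.22 on the log2 scale without passing the thresholds. Macrophage markers were similar in the glands of a mouse: the ratio of their summed level, Adamts18-/- to WT, was 1.05, 1.15 and 0.974 in mice 1 to 3, and 0 of 10 passed the thresholds. Skeletal muscle markers were 42.1 and 13.6 times as high in the Adamts18-/- as in the WT gland of mice 1 and 2, where Ccl2 and Ccl3 were higher, and 0.678 times in mouse 3, where they were not. Cxcl2 too was highest in the Adamts18-/- glands of mice 1 and 2, at 6.83 and 4.97 CPM. In mouse 3 its Adamts18-/- gland was also the higher one, at 0.960 against 0.409 CPM. The part of muscle in these values was not tested.

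**Figure D3:**
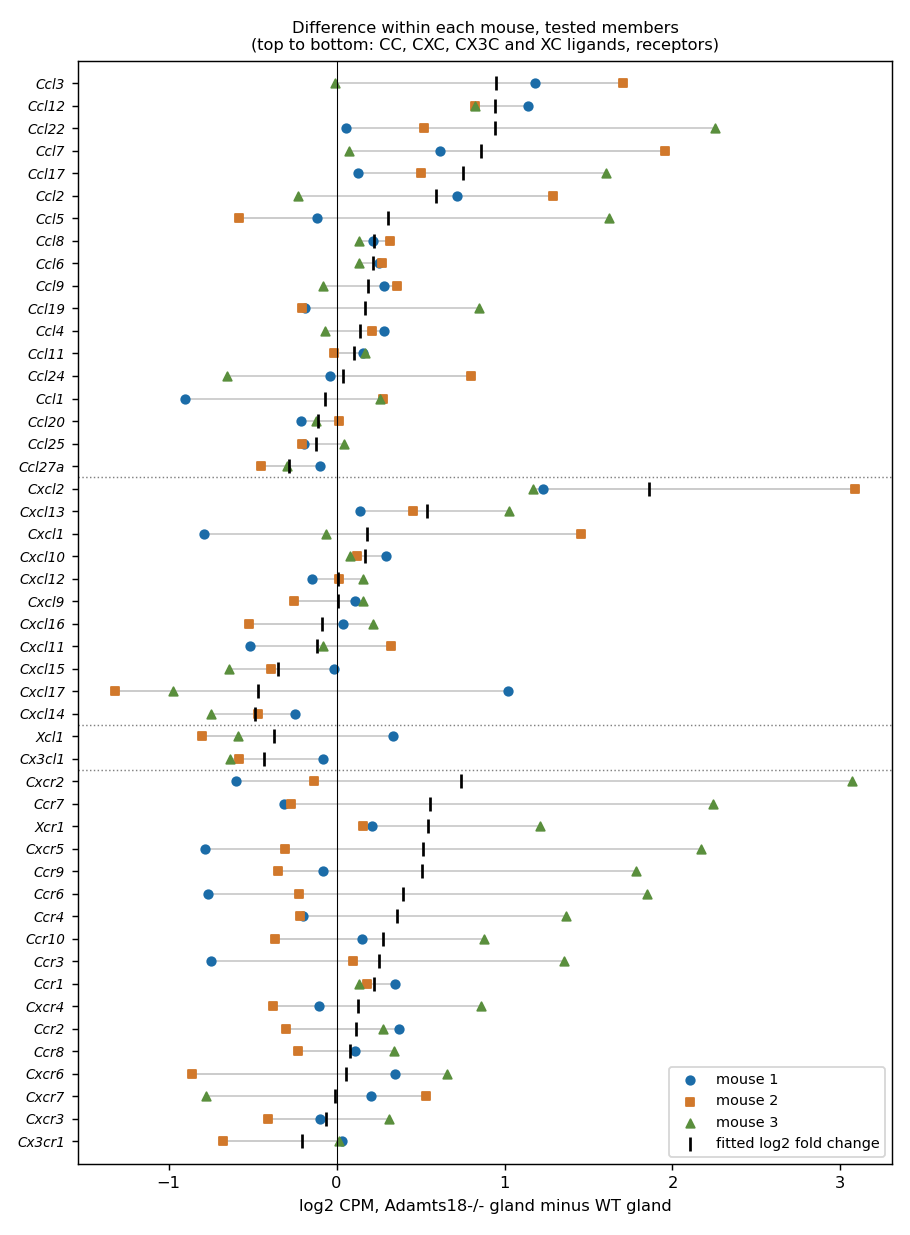
Difference in log2 CPM between the Adamts18-/- and the WT gland of each mouse (points) and the fitted log2 fold change (black ticks) for the tested members named in the text, ordered by class and fitted value. Ccl12, Cxcl2 and Cxcl13 lay above 0 in all 3 mice, Cxcl14 and Cx3cl1 below, and for Cxcr5, Ccr6, Ccr9 and Ccr7 the point of mouse 3 lay far to the right of the other two.

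The Cxcl12 axis, which keeps leukocytes and progenitor cells in place and is known as a stromal signal, showed no difference past the thresholds. Cxcl12 was at 417.2, 456.8 and 351.7 CPM in WT and 377.3, 461.8 and 392.2 CPM in Adamts18-/- glands, a log2 fold change of 0.0093 ± 0.10 (SE, n = 3 mice) whose sign flipped under library size scaling. Cxcr4 was at 24.6, 33.5 and 46.4 CPM in WT and 22.9, 25.8 and 84.3 CPM in Adamts18-/- glands, lower in mice 1 and 2 and higher in mouse 3 (0.13 ± 0.26). Cxcr7 went the other way, with 237.1, 167.1 and 174.9 CPM in WT and 272.8, 241.4 and 101.8 CPM in Adamts18-/- glands. Its fitted value was -0.011 ± 0.27 with all mice, 0.37 without mouse 3 and 0.36 under epithelial scaling. It was called higher without mouse 3, in a fit that called 3.34% of all genes higher.

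The interferon-induced ligands Cxcl9, Cxcl10 and Cxcl11, which draw activated T cells and NK cells through Cxcr3, stood apart in mouse 3 and did not pass the thresholds between genotypes. Cxcl9 was at 34.3, 43.8 and 114.5 CPM in WT and at 37.0, 36.8 and 127.8 CPM in Adamts18-/- glands, high in both glands of mouse 3. Its log2 fold change was 0.0058 ± 0.10 (SE, n = 3 mice), with the sign flipped under library size scaling. Cxcl10 was at 3.15 to 5.09 CPM in the glands of mice 1 and 2 and at 20.8 and 22.1 CPM in those of mouse 3 (0.17 ± 0.12 between genotypes), and an exon of Art3 overlaps it on the other strand. Cxcr3 was at 4.74 to 6.88 CPM in mice 1 and 2 and at 17.2 and 21.3 CPM in mouse 3. Of 6 genes that make or carry interferon signals, among them Ifng and Irf1, 0 passed the thresholds in edgeR and 0 had an unadjusted p under 0.05 (median -0.017).

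Mouse 3 stood apart for most receptors. Both of its glands lay above the other 4 in 28 of 49 tested members (57.1%), where 24.2% of all genes showed this, and in 15 of the 18 receptors. In Adamts18-/- glands the 4 tested members with the largest ratio of mouse 3 to the other mice were Cxcr5, Ccr6, Ccr7 and Ccr9, all receptors of lymphocytes. Cxcr5, the receptor that brings B cells into follicles, was at 0.846, 0.783 and 8.28 CPM in WT glands (mice 1 to 3) and at 0.478, 0.627 and 37.3 CPM in Adamts18-/- glands. Relative to the mean of mice 1 and 2, mouse 3 was thus 10.2 times as high in WT and 67.5 times in Adamts18-/- glands.

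Ccr7, which leads lymphocytes and mature dendritic cells into lymph nodes, showed the same pattern with 3.67, 5.63 and 13.9 CPM in WT and 2.95, 4.65 and 66.0 CPM in Adamts18-/- glands. Ccr6, a receptor of B cells and T helper 17 cells, had 0.674, 0.816 and 4.25 CPM in WT and 0.382, 0.693 and 15.4 CPM in Adamts18-/- glands. Ccr9, a gut homing receptor, had 0.688, 1.06 and 3.14 CPM in WT and 0.650, 0.825 and 10.9 CPM in Adamts18-/- glands. Its exons overlap Slc6a20a and AC165425.1 on the other strand and Gm17200 on its own strand. In all 4 receptors the Adamts18-/- gland was the lower one in mice 1 and 2 and the higher one in mouse 3. None of the 4 passed the thresholds , and the fitted log2 fold change of Ccr7 was 0.56 ± 0.60 (SE) with all mice and -0.29 without mouse 3.

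Over the receptors as a group, the mice differed in direction. The Adamts18-/- gland was higher for 9 of 18 receptors in mouse 1, 5 in mouse 2 and 17 in mouse 3, with median log2 differences of -0.022, -0.25 and 0.87. For the 31 ligands it was higher for 18, 19 and 17, with medians of 0.11, 0.21 and 0.074. Lymphocyte markers moved in the same way: 7 of 7 B cell genes and 9 of 9 T cell genes had a fitted value above 0, and the ratio of their summed levels, Adamts18-/- to WT, was 0.781, 0.746 and 4.78 for B cells and 0.883, 0.645 and 2.81 for T cells in mice 1 to 3. Ptprc, the pan-leukocyte antigen CD45, had ratios of 1.096, 0.881 and 2.70. None of these lists had a gene at 0 in all libraries, and the part of lymphocytes in the receptor values was not tested.

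**Figure D4:**
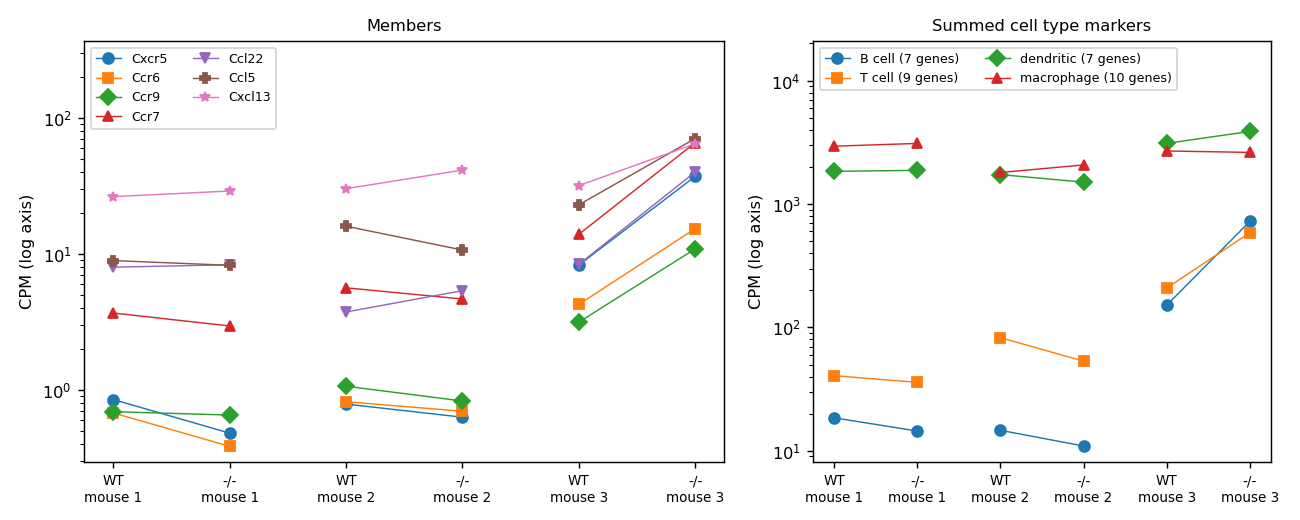
CPM on a log axis of 7 members (left) and summed CPM of 4 lists of cell type markers (right) in each gland, with a line joining the 2 glands of 1 mouse. Cxcr5, Ccr6, Ccr9 and Ccr7 and the B and T cell markers were higher in both glands of mouse 3 than in the other 4 and highest in its Adamts18-/- gland (-/-), while macrophage markers stayed between 1801 and 3098 CPM.

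Ligands and receptors of dendritic cells and T cells followed mouse 3 in part. Ccl22, made by dendritic cells and macrophages for Ccr4-bearing T cells, was at 7.99, 3.74 and 8.38 CPM in WT and 8.32, 5.36 and 40.1 CPM in Adamts18-/- glands (log2 fold change 0.94 ± 0.47, SE, n = 3 mice). Ccl17, its neighbour on chromosome 8 with the same receptor, was at 2.06, 1.14 and 1.21 CPM in WT and 2.26, 1.63 and 3.74 CPM in Adamts18-/- glands (0.75 ± 0.34). Both were higher in all 3 mice, mostly in mouse 3. Xcr1, which marks cross-presenting dendritic cells, was at 1.86, 1.55 and 4.01 CPM in WT and 2.16, 1.73 and 9.34 CPM in Adamts18-/- glands (0.54 ± 0.27), again with the same sign in each mouse. Its ligand Xcl1, from T and NK cells, was at 0.903 to 1.78 CPM in mice 1 and 2 and at 6.45 CPM in the WT and 4.28 CPM in the Adamts18-/- gland of mouse 3 (-0.37 ± 0.28).

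Summed markers of dendritic cells, which include genes that B cells and macrophages also express, were 3099 and 3875 CPM in mouse 3 and 1503 to 1874 CPM in the other glands. Ccl5, a product of T and NK cells, was at 8.93 to 23.0 CPM in WT glands, at 8.24 and 10.7 CPM in the Adamts18-/- glands of mice 1 and 2 and at 70.8 CPM in that of mouse 3 (0.30 ± 0.46). Cxcl16, which holds Cxcr6-bearing T cells, was at 28.5, 38.4 and 54.6 CPM in WT and 29.3, 26.7 and 63.6 CPM in Adamts18-/- glands (-0.086 ± 0.16), and Zmynd15 overlaps it on the other strand. Cxcr6 had 2.77, 8.42 and 13.6 CPM in WT and 3.54, 4.62 and 21.4 CPM in Adamts18-/- glands (0.056 ± 0.33). None of these pairs of ligand and receptor passed the thresholds.

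The remaining tested members were at low levels or close to 0 difference. Ccl27a, a ligand of Ccr10 made by keratinocytes, was the member whose groups did not overlap, with 5.81, 7.73 and 6.80 CPM in WT and 5.41, 5.64 and 5.53 CPM in Adamts18-/- glands (log2 fold change -0.29 ± 0.14, SE, n = 3 mice). Exons of Il11ra1 overlap it on the other strand, and as the strand setting of the counting was not given, reads of one cannot be told from reads of the other. The same holds for Cxcl11, Cxcr5, Cx3cr1 and Xcl1, whose exons overlap Gm2673, Bcl9l, Gm33858 and Gm20743 on the other strand. Cxcl17, a mucosal ligand, was at 0.832, 2.32 and 2.88 CPM in WT and 1.72, 0.908 and 1.45 CPM in Adamts18-/- glands, higher in mouse 1 and lower in mice 2 and 3 (-0.47 ± 0.53). Ccl25, the ligand of Ccr9, whose exons overlap Elavl1 on the other strand, had 2.66 to 3.40 CPM in the 6 glands. Ccl1, Ccl19, Ccl20, Cxcl11, Ccr4, Ccr8 and Ccr10 were at 0.0574 to 3.95 CPM and did not pass the thresholds.

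The 9 members not tested were Ccl21a, Ccl21b, Ccl21c, Ccl26, Ccl27b, Ccl28, Cxcl3, Cxcl5 and Cxcr1. Ccl21b, Ccl21c and Ccl28 had 0 reads in all 6 columns, which allows a level of up to 0.0574 CPM at these depths by counting error alone, and Ccl21a had 1 read. The Ccl21 genes are near-identical copies, as are Ccl27a and Ccl27b in part, and reads shared by copies can be lost or split in counting, so their values are uncertain. Ccl26 had 2 to 9 reads per gland, Ccl27b 2 to 10 and Cxcr1 0 to 5. Ccl19, the other Ccr7 ligand beside Ccl21, was measured at 0.803 to 1.33 CPM in 5 glands and 2.42 CPM in the Adamts18-/- gland of mouse 3.

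Genes that act with chemokines were counted in lists. Of 15 inducing cytokines and NF-kB genes, 14 were tested, 12 with a fitted value above 0 and 2 below, and 1 passed the thresholds: Tnfaip3, a target and inhibitor of NF-kB, at 46.6, 54.4 and 48.3 CPM in WT and 56.0, 78.5 and 66.2 CPM in Adamts18-/- glands (log2 fold change 0.42 ± 0.08, SE, n = 3 mice). Of all genes tested, 1.17% were called higher. The 2 with a fitted value below 0 were Nfkbia, also an inhibitor of NF-kB, at -0.058 ± 0.070 and Rela at -0.078 ± 0.071. Nfkb1 was at 0.010 ± 0.12. Il1b, an inducer of Cxcl2, was at 17.3, 6.87 and 4.96 CPM in WT and 29.7, 11.6 and 4.78 CPM in Adamts18-/- glands (0.50 ± 0.20). It was higher in the Adamts18-/- gland of mice 1 and 2, and nearly level in mouse 3. The median of the 14 was 0.26, and the summed level of the list in Adamts18-/- relative to WT was 0.956, 1.01 and 1.30 in mice 1 to 3. Lta and Ltb, cytokines of lymphocytes, were lower in the Adamts18-/- gland of mice 1 and 2 and higher in that of mouse 3, the gland with the most lymphocyte markers, whose part in these values was not tested.

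Of 18 genes of chemokine receptor signalling, 12 had a fitted value above 0 and 6 below, with a median of 0.10, and the summed level in Adamts18-/- relative to WT was 0.970, 0.944 and 1.27 in mice 1 to 3, so that this list too was higher in the lymphocyte-rich gland of mouse 3. One passed the thresholds: Rgs2, a regulator that shortens G protein signals, at 34.6, 29.5 and 28.6 CPM in WT and 43.6, 39.2 and 39.6 CPM in Adamts18-/- glands (0.40 ± 0.07), with no overlap between groups. Over all genes tested, 1.17% were called higher and 2.31% had all Adamts18-/- glands above all WT glands. A list of 7 atypical receptors and further chemokines, in which Cxcr7 is also a member counted above and the other 6 genes fall outside the symbol rule, had 1 above and 6 below 0, and none passed (median -0.10). Among them the platelet chemokine Pf4 was at 38.6, 26.9 and 25.9 CPM in WT and 40.6, 36.0 and 14.8 CPM in Adamts18-/- glands.

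**Figure D5:**
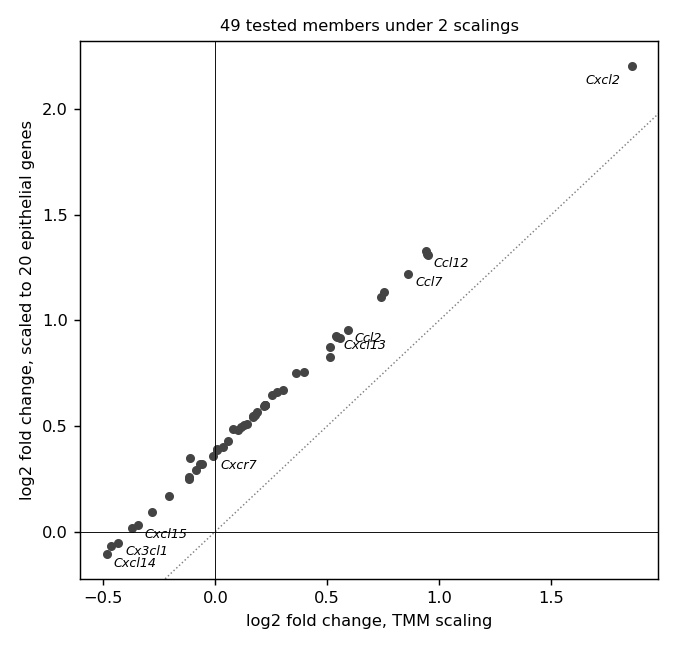
Fitted log2 fold change of the 49 tested members with trimmed-mean (TMM) scaling (x axis) and with libraries scaled to 20 epithelial genes (y axis), with the line of equal values dotted. The points lie above the line, by about the 0.38 that the median of all genes moved, so that Cxcl14 and Cx3cl1 came close to 0 while Cxcl2 reached 2.21.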

How the data were processed

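RNA was extracted from material that the labels call FACS-sorted GFP-positive mammary epithelial cells, and libraries were sequenced as single-end reads of 85 bases. The authors deposited raw read counts per gene symbol, 1 column per gland. The submitters' processing notes name bcl2fastq 2.18, TopHat2 2.0.11, featureCounts 1.6.2, edgeR and the build mm9, and the strand setting and annotation were not given in the sources used here. Positions and exon lengths here are those of GENCODE M21 on GRCm38, which held 57 of the 58 symbols, and promoters those of RefSeq.

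Counts were fitted in R 4.3.3 with edgeR 4.0.16 (TMM, filterByExpr, quasi-likelihood test) over all 17345 genes kept, with the mouse as a block. The pairing comes from the labels, and deviations from the group means correlated at 0.512, 0.505 and 0.639 between the glands of mice 1, 2 and 3. SEs were derived from the F statistic. Log2 CPM used a prior count of 2. Alternatives were DESeq2 1.42.0, limma-voom (limma 3.58.1), leaving out the block, RLE, library size and epithelial scaling, other filters and thresholds, and each mouse left out. DESeq2 with adjusted p was added after the data were seen. The fit was tested on simulated data.

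Members past the thresholds, the 8 ligands and 5 receptors with the highest CPM, and members with one sign in all 3 mice and a log2 fold change over 0.5 either way were chosen for full description, 20 in all, with others by role. One of these 20 is not reported here on its own and stayed in the fits and counts. Ccl2, Ccl3, Ccl5, Cxcl1, Cxcl15, Ccl27a, the lymphocyte receptors and the ligands and receptors set beside them were named after their values were seen. The members, lists and rule were chosen with earlier results of these data known.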

Additional observations from a re-analysis of the deposited data

How the results depend on the processing

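The number of members called higher was 3 and of those called lower 2 with the mouse as a block. In the fit with no replicate block, 0 were called in either direction (218 and 125 of all genes). DESeq2 and limma-voom each called 5 higher (1.96% and 1.99% of all genes, against 1.17%), scaling to epithelial genes called 11 higher and 0 lower and moved the median of the members to 0.55, an adjusted p under 0.05 left 0 and 0, and DESeq2 with an adjusted p 1 and 0. Leaving out each mouse in turn gave 4 to 7 higher (1.03% to 3.34% of all genes), 1 to 4 lower (1.22% to 2.73%) and a median of -0.082 to 0.24. The lowest of these medians and the 7 calls, with the 3.34% of all genes, came without mouse 3, the 4 lower calls without mouse 1. RLE and library size scaling and the filters on low counts left 3 higher and 2 or 3 lower. Among the 20 members chosen for full description, 12 of the values under these alternatives changed sign, none of them in the 5 called members. For Cxcl12, Cxcl9 and Cxcr7 the main values were close to 0 (0.0093, 0.0058 and -0.011), and library size and epithelial scaling moved the median of all genes to -0.025 and 0.38, so their changes of sign under these scalings go with that shift. Over the fits that left out a mouse, the log2 fold change ranged from -0.013 to 0.32 for Ccr2, -0.29 to 1.03 for Ccr7, -0.057 to 0.085 for Cxcl12, -0.064 to 0.13 for Cxcl9, -0.23 to 0.38 for Cxcr4 and -0.29 to 0.37 for Cxcr7. Without mouse 1 Cxcl9 was -0.046. Library size scaling gave -0.016 for Cxcl12 and -0.020 for Cxcl9, no filter gave -0.0026 for Cxcl9, and Cxcr7 was 0.089 without the block and 0.36 with epithelial scaling. The cause of the other changes was not tested. With 3 mice, and with 23 to 59 reads in 3 of the 6 glands for Cxcl2, the counts limit what can be said of the low members, and counting error alone is covered by the limits given.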
